A study of Mus musculus with 9 samples.

Results

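The 8 genes described here act in crossover maturation, the steps of meiosis that turn a recombination intermediate into a crossover: Msh4, Msh5, Hfm1, Tex11, Rnf212, Ccnb1ip1, Cntd1 and Mlh3. They were chosen by name and are 8 of the 32285 genes counted in every library. A crossover holds homologous chromosomes together until they separate at the first meiotic division, and each chromosome pair needs one. The products of Msh4 and Msh5 form a clamp on early recombination intermediates, and Hfm1, a DNA helicase, and Tex11, a scaffold protein, act beside them. Rnf212 and Ccnb1ip1 (HEI10) are RING-finger ligases that act on which intermediates are kept, Cntd1 is a cyclin-related protein needed for crossover designation, and Mlh3 encodes part of the endonuclease activity that completes the crossover.

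Whole testes of 9 male mice at postnatal day 24 gave 1 single cell library each. The 4 control mice are littermates or non-littermates of the cKO mice. All mice are labelled C57BL/6, and the methods give backcrossing to the J substrain for all of them. The 2 NELF-B cKO and the 3 TDP-43 cKO mice carry 1 floxed and 1 null allele of Nelfb or Tardbp together with the Stra8-iCre transgene, which is active in spermatogonia (SG) and whose excision is not yet complete in every cell at this age. The floxed exons are 1 to 4 of Nelfb, which encodes a subunit of the complex that holds RNA polymerase II in promoter-proximal pausing, and exon 3 of Tardbp, which encodes the RNA- and DNA-binding protein TDP-43. The study compared the cKO mice with the controls to ask what the loss of either protein does to germ cell development.

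All 8 genes were counted in mouse build GRCm38 (mm10), and GENCODE release M21 places them as follows. Msh4 lies on chromosome 3 from 153857149 to 153906138, Hfm1 on chromosome 5 from 106840192 to 106926321 and Rnf212 on chromosome 5 from 108729290 to 108774982, all on the minus strand. Cntd1 lies on chromosome 11 from 101279012 to 101296317 on the plus strand. Mlh3 lies on chromosome 12 from 85234520 to 85270599, Ccnb1ip1 on chromosome 14 from 50789248 to 50807732 and Msh5 on chromosome 17 from 35028605 to 35046745, all on the minus strand. Tex11, on the minus strand of chromosome X from 100838648 to 101059667, is the X-linked member. Cntd1 overlaps Coa3 and Becn1, and Rnf212 overlaps 1700047L14Rik, on the opposite strand, and these neighbours are counted in the files as well. Whether strand was used in the counting is not given in the sources used here.

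The promoters of 7 of the 8 genes had a window in the RefSeq table for GRCm38.p6, which spans the bases around each start site; Tex11 was not matched. They were searched on both strands for CNCCTCAG, the motif of STRA8 and MEIOSIN, the factors that start the meiotic programme, and for GGCAGTT, a motif of A-MYB, a factor active in pachytene. These motifs do not overlap with each other. CNCCTCAG occurs in 7.94% of the 32851 promoter windows of the table and GGCAGTT in 4.12%. Among the members, CNCCTCAG was found in the windows of Hfm1 and Msh5, the members that rose most on entry into meiosis (below), and GGCAGTT in none of the 7. The matches are shown with their flanks, 5′ to 3′ on the strand of the gene, with the motif in capitals (as its reverse complement in the second of Hfm1 and in that of Msh5):
Hfm1, chr5:106925878-106925907, minus strand: cgcatgcgcgtCGCCTCAGcctcccgcccg
Hfm1, chr5:106925938-106925967, minus strand: cggcctgaggcCTGAGGCGcaccgtgcggt
Msh5, chr17:35046686-35046715, minus strand: gatcgtcgcggCTGAGGTGacggaaaaggc
The Hfm1 matches begin, as written, 6 and 66 bases before the RefSeq start of transcription, and the nearer one runs over that start. The Msh5 match begins 82 bases before its RefSeq start. By the GENCODE positions given above, whose starts lie further upstream, these matches fall inside the genes. A match describes the letters only.

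The filters on genes and mitochondrial UMIs left 45132 barcodes, from libraries of 119203347 to 159407373 UMIs, and any 2 libraries shared at most 0.355% of the smaller library's barcodes. Clustering integrated across the genotypes gave 30 clusters, of which 22 with 27781 cells were named from markers. The 17848 germ cells were placed in SG, in spermatocytes (SC) at the stages pre-leptotene (pL), leptotene (L), zygotene (Z), and then pachytene (P) or diplotene (D), and in round spermatids (RS). None of the 8 genes was used for clustering. An SG cluster of 446 cells was led by the haemoglobin genes Hbb-bt, Hba-a1, Hbb-bs and Hba-a2, with 5 of the 8 SG markers up and a median of 2338 UMIs, and gave 28 to 103 of the SG cells used per mouse. In a fit added after the data were seen, SG without this cluster gave the same number of member calls except in the test of the change from SG to Z (last paragraph). Per mouse, Z held 113 to 469 cells before any was left out, while TDP-43 cKO replicate 1 had 6 P, 2 D and 3 RS cells and NELF-B cKO replicate 2 had 2 D cells. Nelfb stood at 60.9 to 73.0 CPM in the early germ cells (SG, pL, L and Z) of the controls, while NELF-B cKO replicates 1 and 2 had 4.26 and 5.03 CPM. Tardbp stood at 112 to 142 CPM in the controls and at 34.6 to 46.4 CPM in the TDP-43 cKO mice, although a 3′ UMI of Tardbp does not report on exon 3. As in the study, cKO germ cells that still showed a UMI of the gene deleted in them were dropped. This removed 236 of the 3462 NELF-B cKO germ cells for Nelfb and 3106 of the 5717 TDP-43 cKO germ cells for Tardbp. Levels are in CPM, the UMIs of a gene per 1000000 UMIs of a stage in a mouse, and the mouse is the unit of replication. Errors are SD over mice unless named as SE.

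Levels in free RNA and in Sertoli cells are given as background. In barcodes with 1 to 100 UMIs, taken as free RNA, the controls had 7.27 to 18.9 CPM of Msh4, 12.5 to 20.8 of Msh5, 25.8 to 61.5 of Hfm1, 14.5 to 35.9 of Tex11, at most 18.9 of Rnf212, 16.5 to 35.2 of Ccnb1ip1, 93.3 to 141 of Cntd1 and 20.1 to 46.8 of Mlh3. Sertoli cells, the somatic nurse cells of the tubule, which do not enter meiosis, had at most 13.3 CPM of Msh4, 10.5 of Msh5, 40.5 of Hfm1, 34.9 of Tex11, 9.04 of Rnf212, 18.0 of Ccnb1ip1 and 34.9 of Mlh3 in the controls. Their Cntd1 level was higher, at 36.6 to 49.7 CPM, above the 19.6 to 22.8 CPM of SG. Control Sertoli cells are shallow, with medians of 2075 to 2787 UMIs, against 12308 to 17244 in SG. With each cell thinned to 2000 UMIs, Cntd1 had a UMI in 2.96% to 7.82% of control SG, against 9.69% to 14.3% of Sertoli cells, and without thinning in 24.9% to 36.6% and 26.4% to 33.4%. The Cntd1 level of SG therefore cannot be told from background. The same holds for the SG levels of Hfm1, at 23.4 to 31.0 CPM, and Mlh3, at 29.9 to 34.6 CPM, which lie inside or overlap the ranges of Sertoli cells and of free RNA, and for Msh4, at 12.3 to 16.3 CPM. That of Msh5, at 11.7 to 13.7 CPM, was above Sertoli cells but not above free RNA. With thinning, Hfm1 had a UMI in 4.20% to 5.04% of SG and 2.63% to 9.51% of Sertoli cells. Fold changes from SG of these genes start from such levels. The share of free RNA among the UMIs of a cell was not estimated. A level no higher than in free RNA or Sertoli cells is therefore not shown to be background. In Z, Cntd1 had 184 to 260 CPM, above its level in Sertoli cells and above its 93.3 to 141 CPM in free RNA of the same mice. The thinned share for Tex11 was 31.8% to 38.4% in SG and 0.877% to 3.93% in Sertoli cells. Thinning left out 128 shallow SG and 502 shallow Sertoli cells of the controls.

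In the control mice, the 8 genes reached their highest mean level at different stages. Tex11 was already high in SG and had its highest mean in pL. Msh5, Hfm1 and Rnf212 peaked in L, Msh4 and Cntd1 were highest in Z, and Mlh3 was highest in P. Ccnb1ip1 stood at similar levels from pL to Z. The order of the members in time was not tested. Neighbouring stages were compared with edgeR's quasi-likelihood test with the mouse as a block, and p-values were adjusted over all genes tested. Of the 8 genes, 6 rose and 1 fell from SG to pL, 4 rose from pL to L, 3 rose and 3 fell from L to Z, 1 rose and 6 fell from Z to P, all 8 fell from P to D, and 5 rose and 3 fell from D to RS. These steps change a large part of all genes, with 49.9% of the genes tested called from SG to pL, 29.8% from pL to L, 36.2% from L to Z, 68.3% from Z to P, 61.3% from P to D and 66.1% from D to RS. The median log2 change of the 8 genes was 0.70 from SG to pL, where that of all genes was -0.51, and 0.66 from pL to L, against 0.03. It was -0.04 from L to Z against 0.29, and -1.08 from Z to P against -0.30. From P to D it was -1.48 against -0.11, and from D to RS 0.58 against 0.21. Leaving out 1 control ended a few calls: that of Rnf212 from SG to pL without replicate 2, that of Msh4 from L to Z without replicate 4, that of Tex11 from P to D without replicate 1, 3 or 4, and that of Rnf212 from D to RS without replicate 2, 3 or 4. In clusters made without integration, the falls of Rnf212 (-0.10, edgeR adjusted p = 0.406) and Ccnb1ip1 (edgeR adjusted p = 0.995) from Z to P were not called, and Ccnb1ip1 fell from D to RS (-0.87). DESeq2 did not call the falls of Msh5, Tex11 and Cntd1 from P to D. The members that rose from D to RS reached means of 12.0 CPM for Msh4, 17.6 for Hfm1, 9.68 for Tex11, 12.1 for Rnf212 and 5.73 for Ccnb1ip1. These lie within the range of control Sertoli cells, except that Rnf212 is above and Ccnb1ip1 below it.

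**Figure D1:**
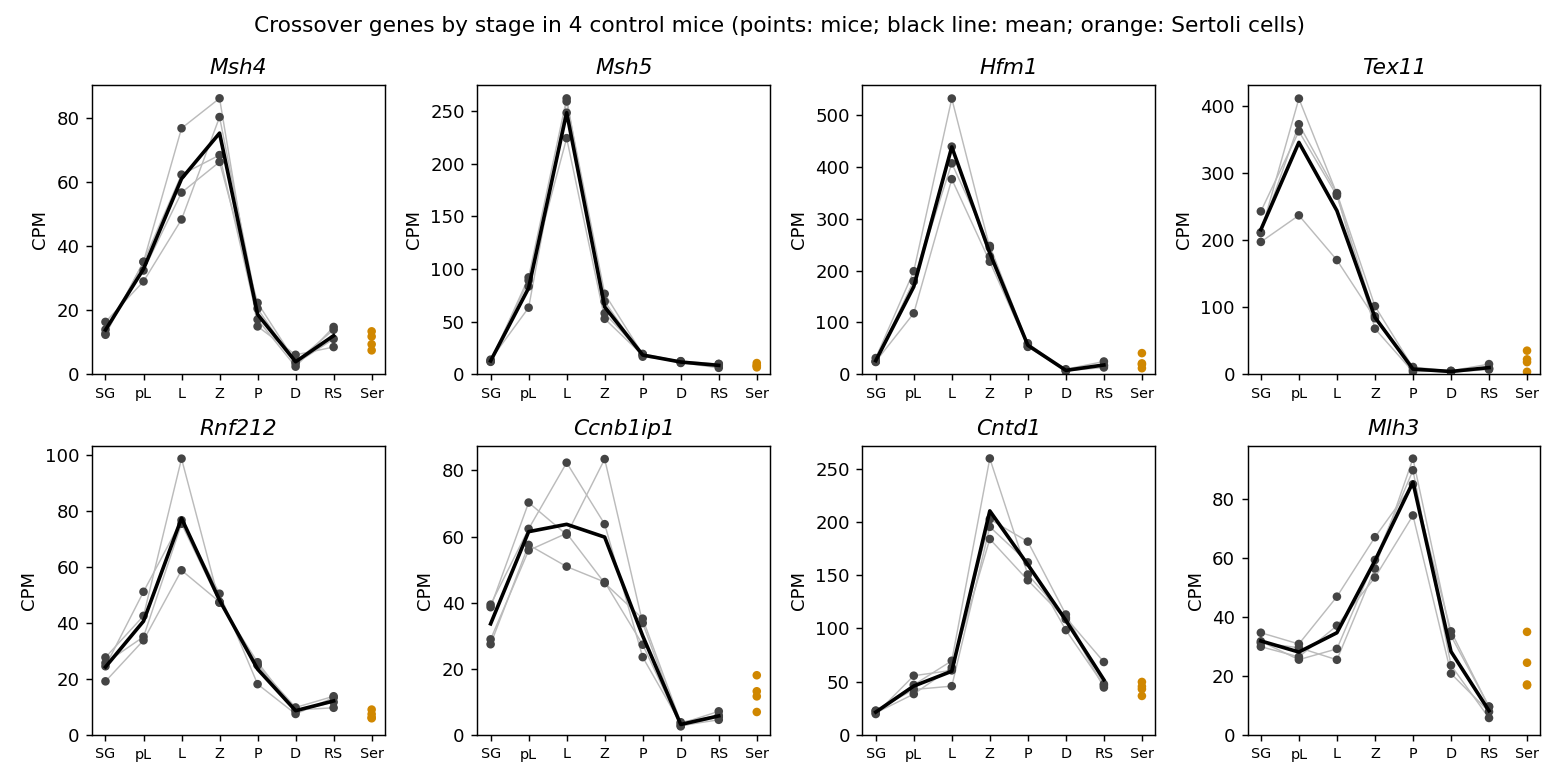
Level of each crossover gene in CPM (y axis) by germ cell stage and in Sertoli cells (x axis, Ser) in the 4 control mice, with points for mice, grey lines joining the stages of a mouse, the black line for the mean and orange points for Sertoli cells. Tex11 is highest in pL, Msh5, Hfm1 and Rnf212 in L, Cntd1 in Z and Mlh3 in P.

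Msh5 gave the sharpest peak of the MutS pair. Its level in L was 259, 248, 262 and 224 CPM in control replicates 1 to 4, against 63.2 to 92.0 CPM in pL and 52.6 to 76.3 CPM in Z. No mouse's pL or Z value reached its L value. The rise from SG, at 12.6 ± 0.892 CPM (n = 4), to pL was 2.45 on the log2 scale (SE 0.14, edgeR adjusted p = 7.43e-14), and the rise to L added 1.58 (SE 0.14, edgeR adjusted p = 6.76e-10). From L to Z it fell by 1.63 (SE 0.13, edgeR adjusted p = 4.01e-11). In order, its levels ran L, pL, Z, P, SG, D and RS, and the ranges over mice overlapped between pL and Z and between SG and D.

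Msh4 followed a broader course. Its level was 56.6, 76.7, 62.2 and 48.2 CPM in L and 66.2, 86.0, 68.3 and 80.2 CPM in Z of the same mice. The ranges of L and Z overlap, although the mean change from L to Z, 0.66 (SE 0.20), passed the test (edgeR adjusted p = 0.00964) and did not with DESeq2 or without control replicate 4. From Z to P it fell by 1.69 (SE 0.17, edgeR adjusted p = 6.57e-10), and D held 2.33 to 6.02 CPM. The levels ran Z, L, pL, P, SG, RS and D, with overlaps between P and SG and between SG and RS as well. The clamp partners were thus out of step in Z, where Msh4 was at its highest and Msh5 had dropped to 63.9 ± 10.7 CPM (n = 4).

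Hfm1 rose to L as Msh5 did, with a smaller fall from L to Z and a larger one from P to D. Its level in L was 377, 532, 407 and 440 CPM, in Z 217 to 248 CPM and in SG 23.4 to 31.0 CPM. The 4 mice did not overlap between these stages. It rose by 2.42 from SG to pL (SE 0.13, edgeR adjusted p = 1.43e-14), from an SG level not above background, and by 1.37 from pL to L (SE 0.13), and fell by 0.56 from L to Z (SE 0.12, edgeR adjusted p = 0.00034). The fall from L to Z was not called in clusters made without integration. The fall from Z to P was 1.72 (SE 0.12) and that from P to D 2.88 (SE 0.15). The Msh5 changes at these steps were -1.46 (SE 0.13) and -0.59 (SE 0.15). From D to RS the change was 1.12 (SE 0.16) for Hfm1 and -0.63 (SE 0.16) for Msh5.

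Tex11 had its highest mean level in pL, earlier than the other members. It stood at 197, 210, 211 and 242 CPM in SG and at 236, 410, 372 and 362 CPM in pL, and the step between them was not called (log2 change 0.37, SE 0.19, edgeR adjusted p = 0.11). DESeq2 called it, and so did edgeR without control replicate 1. The step from pL to L was called by neither edgeR (-0.49, SE 0.20, edgeR adjusted p = 0.072) nor DESeq2. In L Tex11 had 170 to 270 CPM, which overlaps pL, with control replicate 1 the low one in both pL and L. It then fell by 1.20 from L to Z (SE 0.21, edgeR adjusted p = 2.94e-05) and by 3.17 from Z to P (SE 0.22, edgeR adjusted p = 1.23e-13), to 3.55 to 10.6 CPM. That is within the range of Sertoli cells.

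Rnf212 peaked in L at 58.8, 76.7, 75.4 and 98.7 CPM, with 33.8 to 51.1 CPM in pL and 47.2 to 50.4 CPM in Z. The rise from pL to L was 0.95 (SE 0.16, edgeR adjusted p = 4.24e-05), while the drop to Z, -0.36 (SE 0.15), was not called (edgeR adjusted p = 0.067). Ccnb1ip1, its fellow ligase, had no peak: pL, L and Z stood at 61.5 ± 6.49, 63.7 ± 13.3 and 59.8 ± 17.8 CPM (n = 4 each) and overlapped throughout. It rose from SG to pL by 0.59 (SE 0.16, edgeR adjusted p = 0.00296) and fell from P to D by 3.22 (SE 0.21, edgeR adjusted p = 1.17e-13), the largest drop of any member at that step.

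Cntd1 and Mlh3, which act at designation and resolution, had their highest mean levels in Z and P. Cntd1 rose by 0.81 from SG to pL (SE 0.14, edgeR adjusted p = 2.8e-05), from an SG level below that of Sertoli cells. It had 45.7 to 69.6 CPM in L and 195, 260, 184 and 202 CPM in Z, a rise of 2.12 (SE 0.14, edgeR adjusted p = 8.33e-13). All 4 values in Z were above all 4 in L. It had 160 ± 16.1 CPM in P (n = 4), and the step from Z was not called (-0.04, SE 0.11), although in clusters made without integration it was a called rise of 0.51 (edgeR adjusted p = 3.63e-05). From P to D it fell by 0.52 to 108 ± 6.36 CPM (SE 0.11, edgeR adjusted p = 0.000192; not called by DESeq2), and it had 44.5 to 68.4 CPM in RS. Mlh3 had 53.4, 67.0, 56.4 and 59.3 CPM in Z and 74.4, 85.0, 93.7 and 89.7 CPM in P. It rose from L to Z by 1.18 (SE 0.16, edgeR adjusted p = 7.11e-07) and from Z to P by 0.88 (SE 0.12, edgeR adjusted p = 1.42e-07), and was the member called higher at the entry to P. From SG to pL it fell by 0.49 (SE 0.15, edgeR adjusted p = 0.00746; not called by DESeq2), and its 25.5 to 34.6 CPM in these stages overlapped the 16.8 to 34.9 CPM of Sertoli cells.

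P SC fell into a pair of clusters, one whose second-best marker score was Z and one whose second-best was D, with 1268 and 1551 cells. The haemoglobin gene Hba-a2 was among the leading genes of the cluster near Z. Cntd1, Mlh3 and Ccnb1ip1 had their highest mean level in that cluster. In the controls, Cntd1 stood at 264 ± 40.9 CPM in the P cells near Z and at 123 ± 9.33 near D (n = 4 each), and Mlh3 at 113 ± 12.2 and 75.8 ± 9.77. Ccnb1ip1 had 69.3 ± 8.06 CPM near Z, against 59.8 ± 17.8 in Z itself, and 15.2 ± 1.57 near D. Msh4 went from 52.9 ± 9.07 to 6.44 ± 0.771 and Rnf212 from 45.0 ± 3.45 to 15.6 ± 2.18. The ranges over control mice did not overlap between the P clusters for 7 of the members, Tex11 being the exception. These values are given with no test.

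**Figure D2:**
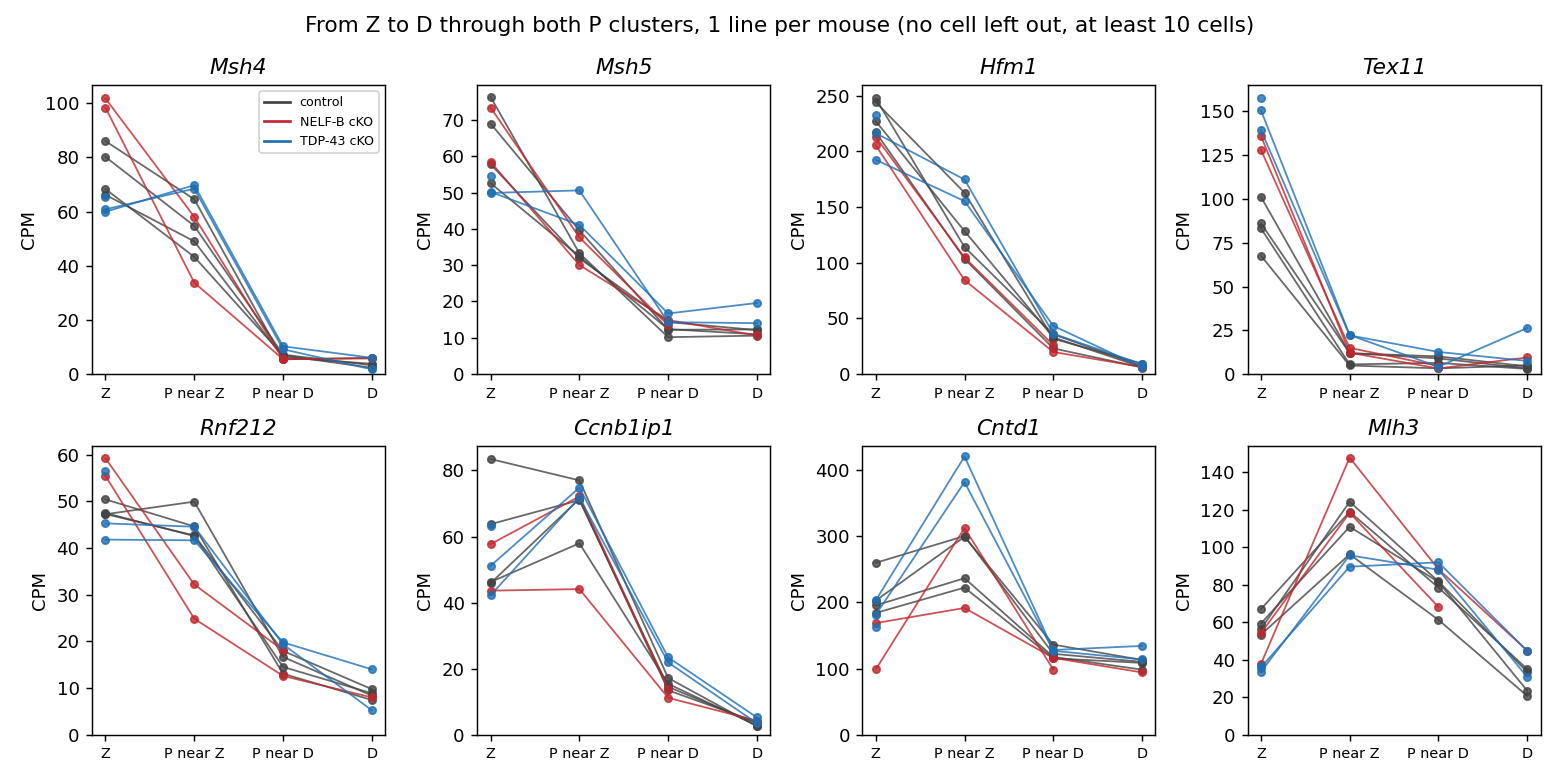
Level of each crossover gene in CPM (y axis) in Z, in the P cluster near Z, in the P cluster near D and in D (x axis), with 1 line per mouse, coloured by genotype, for stages with at least 10 cells and no cell left out. In every control Cntd1 and Mlh3 rise into the P cluster near Z and fall after it, and Cntd1 there is 381 and 420 CPM in TDP-43 cKO replicates 2 and 3, above the 222 to 300 CPM of the controls.

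The 23 other genes of crossover formation and its alternatives, a list of partners, nucleases and anti-crossover factors, moved in both directions at most steps. From SG to pL, 7 rose and 4 fell. Shoc1 and 1700028K03Rik (SPO16), partners of the clamp, rose by 2.05 (SE 0.18) and 1.73 (SE 0.16), and Brip1, a helicase, by 1.14 (SE 0.13). From pL to L, 7 rose and 2 fell, led by Rnf212b, a relative of Rnf212, at 1.66 (SE 0.17), and Mcmdc2 at 1.53 (SE 0.27). From L to Z, 6 rose and 7 fell, and the exonuclease Exo1 fell by 1.83 (SE 0.19). From Z to P, 9 rose and 8 fell. The nuclease genes Mus81 and Slx4 rose by 2.22 (SE 0.19) and 1.73 (SE 0.13) and Prr19, a partner of CNTD1, by 1.69 (SE 0.14). From P to D, 2 rose and 18 fell, and from D to RS, 5 rose and 11 fell. Of all genes tested, 49.9% were called from SG to pL, 29.8% from pL to L and 36.2% from L to Z. The share was 68.3% from Z to P, 61.3% from P to D and 66.1% from D to RS. The counts of the 23 genes were not tested against these shares.

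The genes most like each member over the 28 sums of control mouse and stage, by Pearson's r of log2(CPM + 1) among 18131 genes, are given as a description; the sums share mice and depth. Closest to Msh4 were Senp6, Setd3 and Sycp1 (r = 0.967 to 0.969), to Msh5 Inca1, Pigp and H2-K1 (0.976 to 0.986), and to Hfm1 Ccdc122, Senp6 and Zkscan3 (0.976 to 0.983). Next to Tex11 were Atp2b1, Ammecr1 and Mbnl3 (0.991 to 0.995), to Rnf212 Ankrd31, Msra and Ccdc122 (0.974 to 0.981), and to Ccnb1ip1 Topbp1, Sntb2 and Spcs3 (0.981 to 0.983). Cntd1 had Wdr35, Nek4 and Ift122 (0.941 to 0.951) and Mlh3 Pcbp1, Ndufaf7 and Rnf6 (0.953 to 0.966). Sycp1, a part of the synaptonemal complex, is also a marker used for Z. Between members, Cntd1 and Tex11 ran most apart, with r = -0.471.

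In the early germ cells summed per mouse, none of the 8 genes was called in either cKO against control. By edgeR, 0.0712% of the 19671 genes tested were called in NELF-B cKO and 6.8% in TDP-43 cKO. Cntd1 had the largest difference in both. It stood at 57.3, 83.0, 52.2 and 78.3 CPM in the controls, 28.1 and 16.4 in NELF-B cKO and 23.6, 39.5 and 45.1 in TDP-43 cKO. Every cKO mouse lay below every control. The log2 change was -1.63 (SE 0.31, edgeR adjusted p = 0.0667) in NELF-B cKO and -0.86 (SE 0.25, edgeR adjusted p = 0.0617) in TDP-43 cKO. At an unadjusted p under 0.05, Hfm1, Tex11 and Cntd1 differed in NELF-B cKO and Msh4, Cntd1 and Mlh3 in TDP-43 cKO, where 18.1% and 29.4% of all genes did. DESeq2 called 2 members, Tex11 and Cntd1, in the former and 3, Msh4, Cntd1 and Mlh3, in the latter, among 1448 and 3594 genes. The median log2 change of the members was -0.19 and -0.14, against -0.02 and 0.01 for all genes.

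With Tardbp-positive cells removed from the controls as well, the TDP-43 cKO differences were -0.16 for Cntd1 (edgeR adjusted p = 0.765), -0.05 for Msh4 and -0.05 for Mlh3, and the Cntd1 groups overlapped, at 35.5 to 47.9 CPM in the controls and 23.6 to 45.1 in TDP-43 cKO. With Nelfb-positive cells removed likewise, Cntd1 (-1.90, edgeR adjusted p = 0.0287) and Hfm1 (-0.93, edgeR adjusted p = 0.0337) were called lower in NELF-B cKO. The removal moved the control mean of Hfm1 in the early sum from 105 to 151 CPM, against 81.5 in NELF-B cKO. By stage, the Hfm1 means were then 29.9 CPM in the controls and 27.8 in NELF-B cKO in SG, 184 and 176 in pL, 423 and 430 in L, and 259 and 209 in Z.

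The mixture of stages differed as well. Z cells, where Cntd1 and Msh4 are high, made up 20.5% to 37.2% of the early germ cells in the controls, 9.48% and 16.4% in NELF-B cKO, and 6.46%, 20.6% and 20.4% in TDP-43 cKO. Of the early UMIs, which set the weights in these sums, Z gave 16.6% to 28.9% in the controls. It gave 7.14% and 9.9% in NELF-B cKO and 4.67%, 13.8% and 14.9% in TDP-43 cKO, below every control. With each of the 4 stages given equal weight (limma on log2(CPM + 1)), the Cntd1 change was -1.01 in NELF-B cKO (adjusted p = 0.028) and -0.37 in TDP-43 cKO (adjusted p = 0.184), and Mlh3 was called lower in TDP-43 cKO at -0.51 (adjusted p = 0.0221). This fit changes the weights and the method together, and the part of the mixture in the differences was not tested. Of the 23 other genes, Exo1 was called in TDP-43 cKO, at 65.6 to 69.7 CPM against 51.3 to 57.4 in the controls (log2 change 0.41, SE 0.07, edgeR adjusted p = 0.0365), and none in NELF-B cKO, where Exo1 had 70.7 and 64.8 CPM. Exo1 was called in no single stage of either cKO. In the controls its log2 change from L to Z was -1.83 (SE 0.19). The part of the mixture in its early sums was not tested either.

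Within single stages, the clearest differences lay in Z SC of the TDP-43 cKO mice, where Tex11 was higher and Mlh3 lower than in the controls. There, 17.8% of the 11947 genes tested were called, so that 2 called of 8 members is near the background. Tex11 had 83.3, 67.7, 101 and 86.1 CPM in the controls, while the TDP-43 cKO mice had 142, 124 and 151 CPM. The groups did not overlap. The difference was 0.77 (SE 0.14, edgeR adjusted p = 0.00402). Mlh3 had 53.4, 67.0, 56.4 and 59.3 CPM in the controls and 32.0, 30.9 and 32.7 CPM in the TDP-43 cKO mice, again without overlap, a difference of -0.84 (SE 0.16, edgeR adjusted p = 0.0053). After the removal of Tardbp-positive cells, Z made up 6.46% of the 573 early germ cells left in TDP-43 cKO replicate 1.

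**Figure D3:**
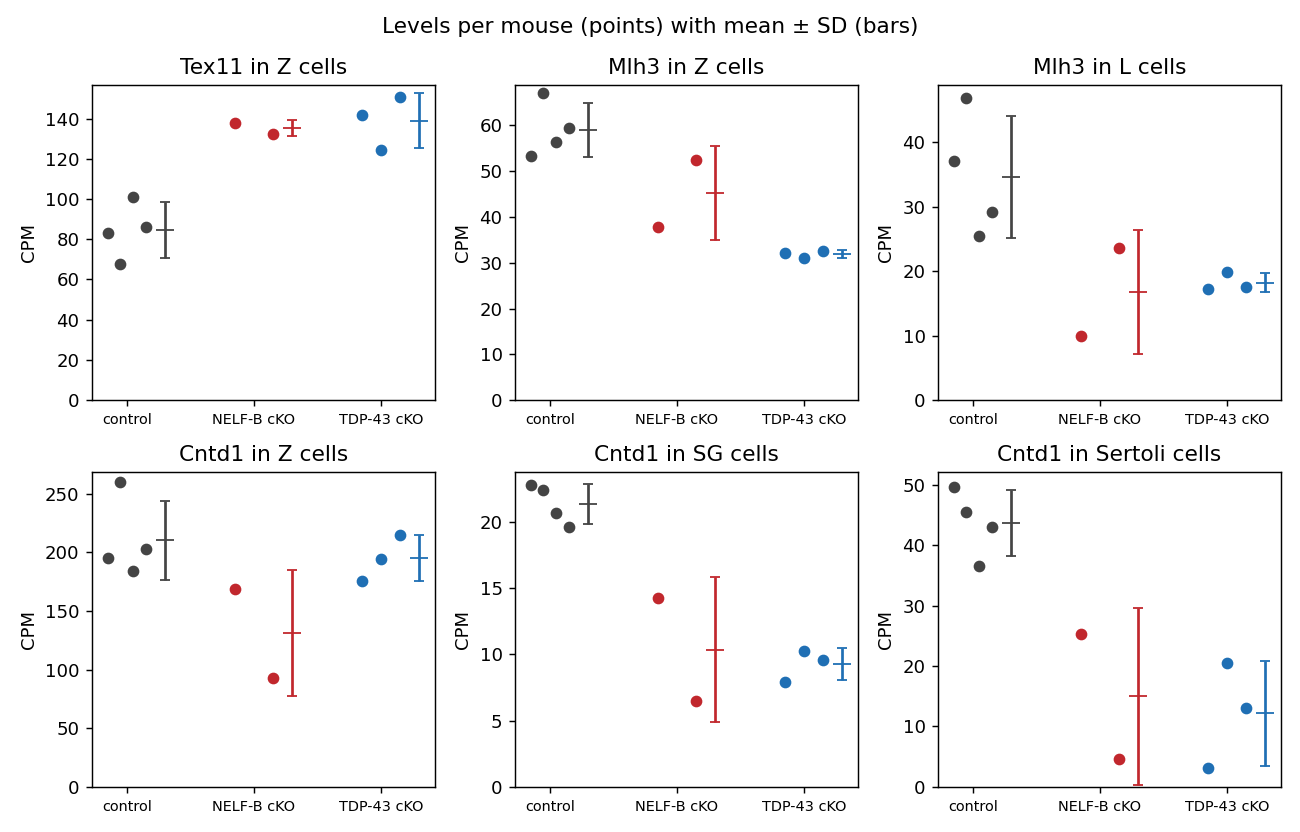
Level in CPM (y axis) of Tex11 in Z, Mlh3 in Z and L, and Cntd1 in Z, SG and Sertoli cells, with points for mice by genotype (x axis) and bars for the mean and SD over mice. In Z, Tex11 is higher and Mlh3 lower in all 3 TDP-43 cKO mice than in all 4 controls, and Cntd1 is lower in every cKO mouse than in every control both in SG and in Sertoli cells.

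Both calls held without any single mouse, with DESeq2 and with no cell left out. They were lost when the removal of Tardbp-positive germ cells was applied to the controls as well, which left 32 to 55 Z cells per control mouse. Tex11 then had 99.5 to 162 CPM in the controls and a difference of 0.19 (edgeR adjusted p = 0.619), and Mlh3 had 37.7 to 68.4 CPM and a difference of -0.67 (edgeR adjusted p = 0.116). Tex11 falls and Mlh3 rises from L to P in the controls, and the markers moved in Z as well. The 5 pL markers summed to 288 to 298 CPM in Z of the TDP-43 cKO mice against 145 to 175 in the controls, the 8 SG markers to 40.2 to 191 against 29.9 to 36.3, the 5 L markers to 1010 to 1292 against 882 to 1002, and the 4 P markers to 583 to 838 against 933 to 1282, with the 5 Z markers at 9231 to 9939 against 7893 to 9374. Of the other members, Hfm1 and Msh5 also fall from L to Z in the controls, and Msh4 and Cntd1 rise. In Z of the TDP-43 cKO mice, Hfm1 differed by -0.08 (SE 0.10), Msh5 by -0.18 (SE 0.18), Msh4 by -0.33 (SE 0.14) and Cntd1 by -0.05 (SE 0.19), and none was called. Free RNA held 60.2, 94.2 and 111 Tex11 CPM in the TDP-43 cKO mice against 14.5 to 35.9 in the controls, and 12.0, 29.8 and 28.3 Mlh3 CPM against 20.1 to 46.8. The part of these markers and of free RNA in the result was not tested.

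The other members in Z of the TDP-43 cKO mice were not called. Cntd1 had 175, 194 and 215 CPM against 184 to 260 in the controls, a difference of -0.05 (SE 0.19). With Tardbp-positive cells removed from the controls too, the controls had 100.4 to 140 CPM, below all 3 TDP-43 cKO mice, and the difference was 0.73 (edgeR adjusted p = 0.0612). Msh4 had 55.6 to 60.6 CPM against 66.2 to 86.0 (difference -0.33, SE 0.14, edgeR adjusted p = 0.123). Of the 21 other genes of the pathway that were tested there, 3 were lower and none was higher, a share no larger than the 17.8% of all genes. Prr19 had 15.5 to 18.5 CPM against 25.8 to 33.1 (edgeR adjusted p = 0.0291). Rtel1, an anti-crossover helicase, had 12.4 to 14.4 CPM against 22.7 to 42.5 (edgeR adjusted p = 0.0283). Blm, a helicase that takes recombination intermediates apart, had 31.0 to 40.5 CPM against 45.9 to 58.7 (edgeR adjusted p = 0.0239). TDP-43 cKO replicate 1 had 11 UMIs of Prr19, 8 of Rtel1 and 24 of Blm in Z. In Z of NELF-B cKO, where none of the 3 was called, Prr19 had 19.7 and 16.2 CPM, Rtel1 15.9 and 35.7, and Blm 55.3 and 51.9. For these 3 genes no fit with Tardbp-positive cells removed from the controls too is given.

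In Z SC of the NELF-B cKO mice, Tex11 was called higher, at 138 and 132 CPM, a difference from the controls of 0.59 (SE 0.16, edgeR adjusted p = 0.04), where 7.99% of all genes were called. The call was lost without any 1 of control replicates 1, 2 and 4, NELF-B cKO replicates 1 and 2 and TDP-43 cKO replicates 2 and 3. It was also lost with Nelfb-positive cells removed from the controls too (0.35, edgeR adjusted p = 0.223), in clusters made without integration (0.40, edgeR adjusted p = 0.157) and with the replicate number as a block, and differences ran from 0.35 to 0.71 over all alternatives. Cntd1 had 169 and 93.2 CPM in these mice, a difference of -0.79 that fell just short of the threshold (SE 0.22, edgeR adjusted p = 0.0505). NELF-B cKO replicate 2 was the lower one. Free RNA held 37.7 and 50.1 Tex11 CPM in these mice. In the same Z cells, the 5 pL markers summed to 198 to 212 CPM against 145 to 175 in the controls, the 8 SG markers to 37.1 to 51.4 against 29.9 to 36.3, the 5 L markers to 949.5 to 1103 against 882 to 1002, the 5 Z markers to 7961 to 8366 against 7893 to 9374, and the 4 P markers to 611 to 848 against 933 to 1282. Their part in the result was not tested. Msh4 had 96.2 and 100.5 CPM, above all controls, but the difference of 0.29 (SE 0.15) was not called (edgeR adjusted p = 0.242).

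Cntd1 was the member called before Z, in pL and L of the NELF-B cKO mice. In pL it had 42.6, 46.9, 38.3 and 55.6 CPM in the controls and 26.2 and 18.5 CPM in the NELF-B cKO mice, a difference of -0.97 (SE 0.22, edgeR adjusted p = 0.0418), where 2.29% of the 11123 genes tested were called. In L it had 45.7, 69.6, 63.2 and 60.6 CPM in the controls and 33.6 and 17.3 CPM in the NELF-B cKO mice, a difference of -1.15 (SE 0.29, edgeR adjusted p = 0.0382), where 6.58% were called. The 14 Cntd1 UMIs of NELF-B cKO replicate 2 in L show how few molecules carry this value. The control levels in pL and L overlap those of control Sertoli cells and lie below the 93.3 to 141 CPM of free RNA in the controls. Both NELF-B cKO mice also lie below their own free RNA, at 84.4 and 30.6 CPM. The part of free RNA in these differences was not tested. The pL call was kept in 1 and the L call in 3 of the 9 fits that left out a mouse. Both were lost with Nelfb-positive cells removed from the controls too (-1.22 and -1.14, edgeR adjusted p = 0.083 and 0.0585) and with the replicate number as a block (-0.91 and -1.10, edgeR adjusted p = 0.267 and 0.193). Over all alternatives the difference ran from -1.26 to -0.77 in pL and from -1.76 to -0.74 in L, and the adjusted p from 0.0106 to 0.267 in pL and from 0.00629 to 0.198 in L. Markers moved in these cells too. In L of the NELF-B cKO mice the 4 P markers summed to 240 to 415 CPM against 526 to 653 in the controls, the 5 pL markers to 694 to 727 against 452 to 608, the 8 SG markers to 81.8 to 113 against 49.4 to 65.3, and the 5 Z markers to 5698 to 6552 against 5985 to 6761. In pL the P markers summed to 76.3 to 260 CPM against 242 to 411, the pL markers to 1881 to 2154 against 1573 to 1774, the SG markers to 488 to 577 against 386 to 515, and the Z markers to 3556 to 3942 against 2754 to 3610. Their part in the Cntd1 differences was not tested. Whether the effect differs from that in TDP-43 cKO, where Cntd1 was not called in pL or L, was not tested. In TDP-43 cKO, 1.47% of genes were called in pL and 9.22% in L, and no member was. At an unadjusted p under 0.05, Rnf212 differed there in pL and Hfm1, Tex11, Rnf212 and Mlh3 in L, where 20.9% and 27.0% of all genes did. DESeq2 called no member, and 574 and 838 genes in all.

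In SG the Cntd1 level was lower in every cKO mouse. The controls had 22.8, 22.4, 20.6 and 19.6 CPM, NELF-B cKO replicates 14.2 and 6.48, and TDP-43 cKO replicates 7.91, 10.3 and 9.55. The differences of -1.05 (SE 0.28, edgeR adjusted p = 0.256) and -1.13 (SE 0.25, edgeR adjusted p = 0.0953) were not called by edgeR, which called 0.00538% of the 18591 genes tested in each cKO, and were called by DESeq2 in both, among 323 and 2029 genes. Without NELF-B cKO replicate 1 its difference was -1.71 (edgeR adjusted p = 0.0411) and without replicate 2 it was -0.55 (edgeR adjusted p = 0.19), with the remaining mouse assumed to vary like the other groups. That of TDP-43 cKO was called in both fits (edgeR adjusted p = 0.014 and 0.0118). Sertoli cells of the same mice moved alike: Cntd1 had 49.7, 45.4, 36.6 and 43.0 CPM in those of the controls, 25.4 and 4.66 in NELF-B cKO and 3.14 to 20.4 in TDP-43 cKO, whose Sertoli cells were deeper, with medians of 8129 to 22320 UMIs. In barcodes of free RNA it had 93.3 to 141 CPM in the controls, 84.4 and 30.6 in NELF-B cKO and 14.4, 84.7 and 88.6 in TDP-43 cKO. NELF-B cKO replicate 2, with the lowest Cntd1 of all mice in pL, L and Z, was also the lower of its genotype in both. In SG, the 4 P markers summed to 98.2 to 233 CPM in NELF-B cKO and 64.2 to 107 in TDP-43 cKO against 236 to 350 in the controls, and the 5 D markers to 86.5 to 173 and 73.5 to 83.4 against 133 to 234. The 8 SG markers there stood at 1858 to 2083 and 1845 to 2091 against 1543 to 1905 CPM. The part of free RNA and of these markers in the Cntd1 differences was not tested. At an unadjusted p under 0.05, Cntd1 differed in SG of NELF-B cKO, as did 11.8% of all genes. In TDP-43 cKO, Cntd1, Ccnb1ip1 (0.42, SE 0.17) and Rnf212 did, as did 22.0%. Rnf212 there had 29.3 to 38.4 CPM against 19.1 to 27.7 in the controls (0.50, SE 0.15, edgeR adjusted p = 0.104) and was called by DESeq2. With Tardbp-positive cells removed from the controls too, these had 14.8 to 33.7 CPM of Rnf212.

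Mlh3 in L stood at 37.0, 46.9, 25.5 and 29.2 CPM in the controls, 9.98 and 23.5 in NELF-B cKO and 17.2, 19.9 and 17.5 in TDP-43 cKO. Every cKO mouse lay below every control, yet neither difference was called, at -1.01 (SE 0.38, edgeR adjusted p = 0.135) and -0.81 (SE 0.34, edgeR adjusted p = 0.142). The Mlh3 level of Sertoli cells overlaps these values. In these L cells of TDP-43 cKO the 4 P markers summed to 179 to 288 CPM against 526 to 653 in the controls, while the 5 Z markers summed to 8253 to 8569 against 5985 to 6761, the 5 L markers to 2799 to 3200 against 2431 to 2609, the 5 pL markers to 652 to 974 against 452 to 608 and the 8 SG markers to 52.5 to 75.8 against 49.4 to 65.3. The sums of NELF-B cKO in L are given above. Their part in the Mlh3 values was not tested. Rmi2, a gene of the complex that dissolves recombination intermediates, was the pathway gene called in L, 1 of 20 tested in NELF-B cKO. There, 6.58% of all genes were called. Rmi2 had 7.26 and 8.67 CPM in NELF-B cKO against 19.8 to 51.6 in the controls (difference -2.01, SE 0.43, edgeR adjusted p = 0.0208). These values rest on 8 and 7 UMIs in NELF-B cKO and 15 to 46 in the controls, and no alternative fit is given for them.

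**Figure D4:**
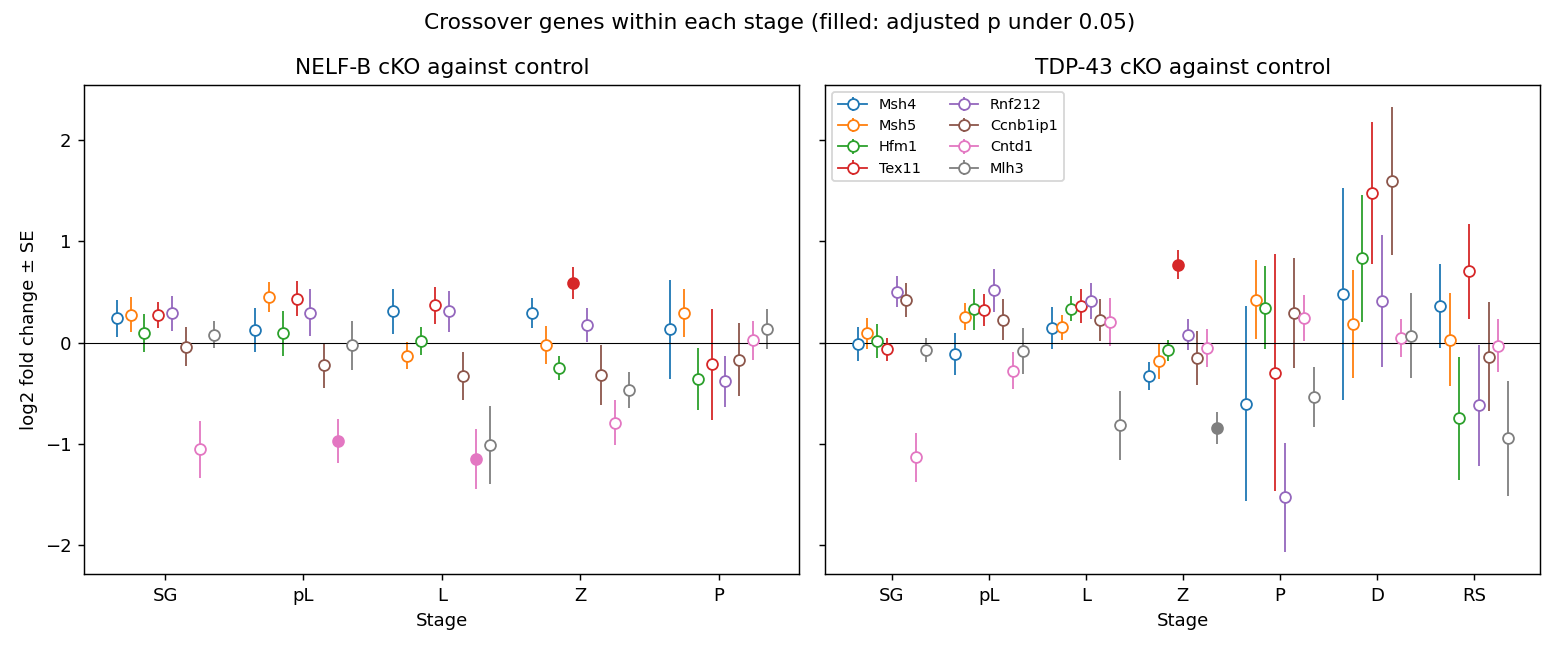
Log2 fold change with SE (y axis) of each crossover gene in each stage (x axis), NELF-B cKO against control on the left and TDP-43 cKO against control on the right; filled points have an edgeR adjusted p under 0.05. In Z of TDP-43 cKO, Tex11 (0.77) and Mlh3 (-0.84) are filled, and in NELF-B cKO Cntd1 is filled in pL and L and Tex11 in Z.

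In P, D and RS no member was called. In P, edgeR called 0.00597% of genes in NELF-B cKO, from 366 and 52 cells, and 3.38% in TDP-43 cKO, from the 17 and 14 cells of replicates 2 and 3 without a Tardbp UMI. Rnf212 differed in the latter at an unadjusted p under 0.05, as did 20.0% of all genes, at 9.82 and 10.1 CPM against 18.1 to 25.9 in the controls, but with no cell left out it had 24.7 and 25.5 CPM. Without any removal, the near-Z P cells held 90 and 98 cells of these mice, with 381 and 420 Cntd1 CPM against 236, 300, 222 and 299 in the controls. Both exceeded every control, a difference that was not tested. Mlh3 in the same cells stood at 95.7 and 89.7 CPM, just under the 96.2 to 124 CPM of the controls. NELF-B cKO replicate 1 had a median of 2588 UMIs in these cells against 20668 to 53504 in the controls and its fellow mouse. In D of TDP-43 cKO, 0.463% of genes were called from 12 and 12 cells, and Ccnb1ip1 differed at an unadjusted p under 0.05, as did 14.4% of all genes, at 7.81 and 13.5 CPM against 2.57 to 3.82 in the controls, but with no cell left out it had 3.51 and 5.27 CPM. In RS of TDP-43 cKO, 0% of the 16952 genes were called by edgeR, 3568 at an unadjusted p under 0.05 and 1051 by DESeq2. In RS of NELF-B cKO, compared with no cell left out because removal left 8 cells in replicate 2, 0.0116% were called. At an unadjusted p under 0.05, 6.59% of all genes differed in P of NELF-B cKO and 1.75% in RS, and no member. DESeq2 called no member in P, D or RS of the cKO mice where it was run, among 186 genes in P of NELF-B cKO and 1464 in P and 188 in D of TDP-43 cKO. D of NELF-B cKO was not tested, since replicate 1 alone had enough cells; its Cntd1 level there was 94.9 CPM and its Mlh3 level 45.2 CPM.

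The change from SG to Z was compared between genotypes in itself, with SG and Z of the same mouse paired. In TDP-43 cKO, 3 of the 8 members changed by a different amount than in the controls, where 5.41% of the 18055 genes tested did. Cntd1 rose 0.99 more (SE 0.16, edgeR adjusted p = 0.0019), from the lower SG level given above to a Z level like that of the controls. Tex11 fell less, by a difference of 0.75 (SE 0.15, edgeR adjusted p = 0.00979), and Mlh3 rose less, by a difference of -0.84 (SE 0.21, edgeR adjusted p = 0.0292). The Mlh3 call was lost without any 1 of the 4 controls or the 3 TDP-43 cKO mice, and that of Tex11 without TDP-43 cKO replicate 3. In clusters made without integration neither was called, at 0.34 for Tex11 (edgeR adjusted p = 0.271) and -0.80 for Mlh3 (edgeR adjusted p = 0.0536). In fits added after the data were seen, removing Tardbp-positive cells from the controls too left Cntd1 as the member called, at 2.57 (edgeR adjusted p = 4.23e-06), with Tex11 at 0.41 (edgeR adjusted p = 0.262) and Mlh3 at -0.44 (edgeR adjusted p = 0.501). The control level of Cntd1 was then 18.2 to 34.4 CPM in SG. Without the SG cluster led by haemoglobin genes, Cntd1 (0.97) and Tex11 (0.80) were called and Mlh3 was not (-0.80, edgeR adjusted p = 0.0662). Prr19 (-1.02, SE 0.22) and Blm (-0.63, SE 0.17) were the pathway genes called. In NELF-B cKO no member was called, 1.92% of all genes were, and Mlh3 differed at an unadjusted p under 0.05 (-0.57, SE 0.23), as did 15.8% of all genes. The Cntd1 value rests on SG levels that lie below those of Sertoli cells in the controls and within the range of Sertoli cells in TDP-43 cKO.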

How the data were processed

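The deposited files hold whole counts (UMIs for each gene in each barcode) without normalization, produced by the authors using Cell Ranger 7.0.0 and an mm10 reference; the file headers name version 4, and whether intronic reads were counted is not given in the sources used here. Barcodes needed over 1000 genes and under 10% mitochondrial UMIs. As in the study, cells were integrated across genotypes with Seurat (5.3.0 here; 40 components, corrected as embeddings to save memory) and clustered at a resolution of 0.8, leaving out the 8 members, the 23 pathway genes, Nelfb and Tardbp. A cluster took the stage with the highest marker score if at least 3 markers were 2-fold up. The endothelial cluster met this but stayed unnamed, because markers of another lineage were up in it as well. Clusters with a median under 2000 UMIs, before the markers were compared, or over 80% of cells from 1 mouse were set aside, limits set after the clusters were seen. Scrublet called 0.324% of cells, too few to have worked, so doublets were kept.

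Counts were summed per mouse and stage (at least 10 cells, 2 mice per genotype) and tested with edgeR 4.0.16 (filterByExpr, TMM, quasi-likelihood), called at a Benjamini-Hochberg adjusted p under 0.05 over all genes tested. SEs come from the fold change and its F statistic. DESeq2 1.42.0 and limma 3.58.1 gave alternatives. The scripts were tested on simulated data. All 8 members are named, and pathway genes where called. The members and lists were chosen with earlier results of these data known.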

Additional observations from a re-analysis of the deposited data

Results flagged for a closer look

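Of 64 sets of 4 control mice (8 members in 7 stages and in the early sum), 4 held a mouse apart from the others by Dixon's criterion; chance gives about 1 in 20. Tex11 in L was 170 CPM in control replicate 1 against 266 to 270 CPM in the others. Control replicate 2 was apart in 3 sets: Cntd1 in RS at 68.4 CPM against 44.5 to 47.6, Rnf212 in P at 18.1 CPM against 24.9 to 25.9, and Rnf212 in Z at 50.4 CPM against 47.2 to 47.5.

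The change from SG to Z differed from that of the controls in TDP-43 cKO for Tex11 (0.75), Cntd1 (0.99) and Mlh3 (-0.84), on the log2 scale and by the test of the interaction. Cntd1 was called in all 13 alternatives, of which 2 were chosen after seeing the data, Tex11 in 10 and Mlh3 in 3. The Cntd1 value ran from 0.90 to 2.57, the highest with Tardbp-positive cells removed from the controls too, and it starts from an SG level that cannot be told from background.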

How the results depend on the processing

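Of 2350 member values recomputed under an alternative, 2090 kept their direction and side of the threshold, 152 changed sign while called under neither setting, 61 lost and 44 gained a call, and 3 changed sign with a call. Those 3 were Cntd1 from Z to P (0.5059) and Ccnb1ip1 from D to RS (-0.8719), both in clusters made without integration, and Msh4 in P of NELF-B cKO, which ran from -1.2210 without NELF-B cKO replicate 2 to 0.8998 without replicate 1. The causes were not tested.

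In the early sums of NELF-B cKO, 0 members were called, against 2 with DESeq2, 2 with the removal also applied to the controls, 1 with equal stage weights (limma) and 0 to 1 with a mouse left out (1 without either NELF-B cKO mouse or TDP-43 cKO replicate 1). In those of TDP-43 cKO it was 0, against 3, 0, 1 and 0 to 2 (2 without either NELF-B cKO mouse). Over all genes DESeq2 called 1448 and 3594, where edgeR called 14 and 1337. Within stages, NELF-B cKO had 3 calls, against 5 with DESeq2, 5 without the low-count filter, 0 with the removal in the controls, 1 without integration (which gave no pL class) and 0 to 4 with a mouse left out. TDP-43 cKO had 2, against 4 with DESeq2 and 0 with the removal in the controls. The 40 calls between stages stayed at 38 to 42 with a mouse left out. The SG to Z change had 0 calls in NELF-B cKO (0 to 1 with a mouse left out) and 3 in TDP-43 cKO (1 without integration, 1 with the removal in the controls, 1 to 3 with a mouse left out). That removal in the SG to Z change, and leaving out the SG cluster led by haemoglobin genes, were chosen after seeing the data.

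Whether same-numbered mice share more than a number is not given in the labels. Their deviations correlated at -0.393 to 0.367, and those of mice with unlike numbers at -0.367 to 0.393. With 2 NELF-B cKO mice, the deviations of one mirror those of the other, so these values cannot decide the question. With the replicate block, the early sums had 0 calls in either cKO, and the stages 0 in NELF-B cKO and 2 in TDP-43 cKO. Some cKO mice had few cells in P, D and RS.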
